A study of Mus musculus with 10 samples.

Results

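Retrogenes and processed pseudogenes are copies of a gene that arose when its messenger RNA was reverse transcribed and inserted elsewhere in the genome, so they carry no introns and often keep the coding sequence of their parent gene. Genes transcribed at very high levels, such as those for ribosomal proteins and glycolytic enzymes, have left many of them in mammalian genomes. A short read from such a copy can match the parent gene equally well, and the copies present at a site can differ between inbred mouse strains.

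Here 7 named copies were followed among the 35275 gene rows of the deposited tables, of which the authors typed 7373 as pseudogenes. They were Rps4l (a copy of Rps4x, which encodes a protein of the small ribosomal subunit), Rpl34-ps1 and Rpl3-ps1 (copies of Rpl34 and Rpl3, which encode proteins of the large subunit), Gm4735 and Eno1b (copies of Eno1, which encodes the glycolytic enzyme enolase), and Ldha-ps and Ldha-ps2 (copies of Ldha, which encodes a lactate dehydrogenase subunit). In the same order their Ensembl genes were ENSMUSG00000063171, ENSMUSG00000068396, ENSMUSG00000084349, ENSMUSG00000064193, ENSMUSG00000059040, ENSMUSG00000082330 and ENSMUSG00000083836. They were selected by name with their levels in these same tumors known, as copies abundant in single tumors, so their levels are described here with no test. The selecting description held for 4 copies, which were abundant in the tumor wild type 5 alone, while Rps4l was abundant in 3 tumors, and Ldha-ps and Ldha-ps2 were nowhere abundant.

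The deposited series holds messenger RNA sequencing of 10 mouse cutaneous squamous cell carcinomas, 5 labelled LDHA-/- (Ldha-null below) and 5 labelled wild type. The paper describes RNA-seq on more tumors of each kind than the series holds. The study asked whether lactate dehydrogenase activity is needed for these tumors. The tumors of the study were started in hair follicle stem cells by alleles recombined with K15CrePR or Lgr5CreER, deletion of p53 among them, or with DMBA/TPA, in adult mice, and were harvested weeks after induction, at times that differed by model. Which model gave each sequenced tumor, and with it the age, and the sex were not given in the sources used here. The mice had a mixed C57BL6 and FVB background, the Cre drivers act in few skin cells, Ldha deletion was mosaic in some tumors, and RNA came from whole fresh tumors, although the labels name squamous carcinoma cells. Counts per tumor totalled 12969508 to 17694201. Levels are given as FPKM, fragments scaled to transcript length and library depth. By this measure Ldha did not separate the labels: it ran from 246 to 1883 FPKM across Ldha-null libraries and from 340 to 2824 FPKM across wild type ones.

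Of the 7 copies, 4 are almost letter for letter their parents' coding sequence, and Rps4l is not. Each was aligned to the closest transcript of a named protein-coding gene in GENCODE M21 (GRCm38, the build called mm10 in the labels). All 7 copies had 1 exon, and the parents' transcripts had 5 to 12. Rps4l, at chr6:148354656-148355598 on the plus strand, was 77.6% identical to Rps4x, with 157 substitutions over the 792 coding positions. The first 120 coding bases, chr6:148354710-148354829 in the copy, are shown to make this distance visible, with differing bases in capitals.
Rps4l: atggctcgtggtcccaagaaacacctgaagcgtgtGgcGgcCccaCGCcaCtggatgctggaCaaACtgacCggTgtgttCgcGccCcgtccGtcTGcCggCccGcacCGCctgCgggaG
Rps4x: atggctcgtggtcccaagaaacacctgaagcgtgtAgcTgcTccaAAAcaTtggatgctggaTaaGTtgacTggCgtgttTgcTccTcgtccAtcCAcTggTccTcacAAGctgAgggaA

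Gm4735, at chr2:80837141-80838442 on the plus strand, was 99.6% identical to Eno1 over its whole length of 1302 bases. It differed at 5 coding positions, T726C, T816G, A1056G, T1224C and C1233T, counted from 1 at the first base of the start codon, with the parent's base first. The stretch shown holds 2 of the 5, at chr2:80837851-80837970 and coding positions 711 to 830.
Gm4735: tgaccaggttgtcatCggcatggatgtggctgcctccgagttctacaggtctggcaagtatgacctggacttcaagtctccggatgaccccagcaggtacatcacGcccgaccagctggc
Eno1: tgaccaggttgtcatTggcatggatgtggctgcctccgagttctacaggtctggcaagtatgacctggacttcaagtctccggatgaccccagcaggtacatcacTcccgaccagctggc

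Rpl34-ps1, at chr6:71124610-71124963 on the plus strand, differed from the 354 coding bases of Rpl34 at T132C and C318G only. The stretch with the first difference lies at chr6:71124681-71124800, coding positions 72 to 191.
Rpl34-ps1: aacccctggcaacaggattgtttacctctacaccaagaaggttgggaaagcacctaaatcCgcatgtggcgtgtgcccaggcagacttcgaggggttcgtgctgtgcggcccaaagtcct
Rpl34: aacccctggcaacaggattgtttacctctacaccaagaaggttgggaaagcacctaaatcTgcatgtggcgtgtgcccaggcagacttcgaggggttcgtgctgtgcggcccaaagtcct

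Rpl3-ps1, at chrX:13202571-13203780 on the plus strand, differed from Rpl3 at C57A and T786C only, over 1209 aligned coding positions. The stretch with the second lies at chrX:13203297-13203416, coding positions 726 to 845.
Rpl3-ps1: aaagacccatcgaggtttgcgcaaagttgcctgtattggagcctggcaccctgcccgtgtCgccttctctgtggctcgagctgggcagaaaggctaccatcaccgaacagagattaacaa
Rpl3: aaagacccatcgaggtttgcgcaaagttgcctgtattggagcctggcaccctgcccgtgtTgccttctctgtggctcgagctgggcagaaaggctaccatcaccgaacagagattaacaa

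All 9 of the substitutions in Gm4735, Rpl34-ps1 and Rpl3-ps1 fell at the third base of a codon. In Rps4l 127 of 157 did, with 23 at the first base and 7 at the second. In Ldha-ps (92.0% identical to Ldha, with 4 gap positions) 39 of 76 substitutions were at the third base. In Ldha-ps2 (89.1% identical, with 64 gap positions) 27 of 52 were. Gap positions count as differences in the percent identity. The pair of Ldha copies thus differed from their parent at all 3 codon positions, unlike the near-identical copies.

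What these differences leave for a read to distinguish was counted in windows of 50 bases, since the read length was not given in the sources used here. No such window of Rps4l was identical to Rps4x, and 0.783% lay within 2 differences, the mismatch number the authors allowed in mapping. Of the windows of Gm4735, 83.3% were identical to Eno1 and 100% lay within 2 differences. For Rpl34-ps1 these shares were 71.5% and 100%, and for Rpl3-ps1 91.4% and 100%. With windows of 100 bases, 69.3%, 46.3% and 85.8% of the windows of Gm4735, Rpl34-ps1 and Rpl3-ps1 were still identical to the parent. Over most of the length of these 3 copies a 50-base read thus holds no base that tells copy from parent, while over Rps4l it always does. How reads that match copy and parent equally were assigned was not given, so the levels of the near-identical copies and their shares are uncertain to that extent.

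**Figure D1:**
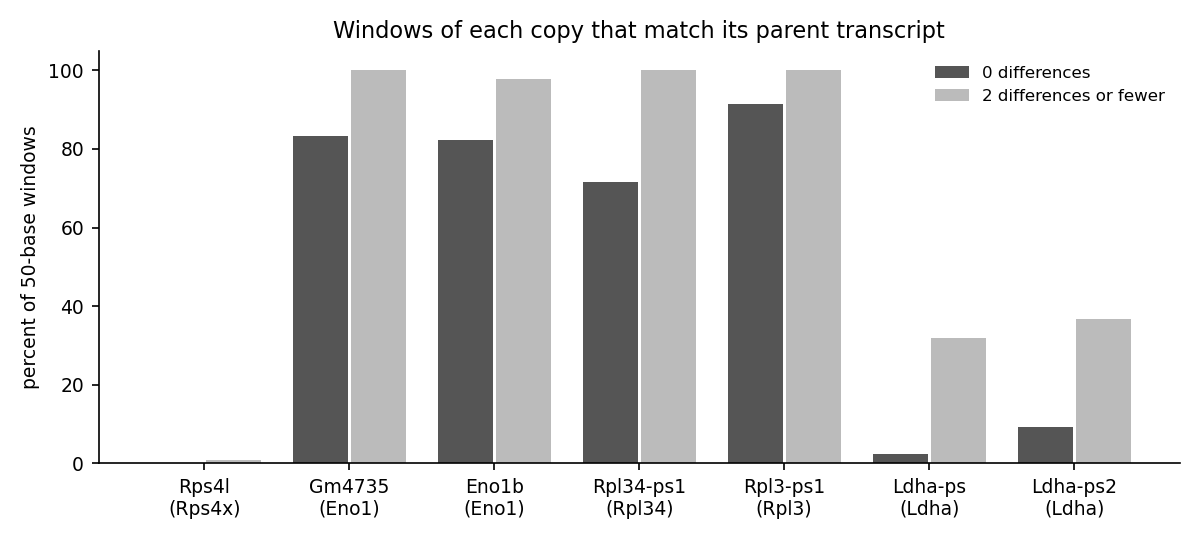
Percent of all 50-base windows of each copy's transcript (vertical axis) that match the aligned parent transcript, named in brackets, with 0 differences (dark bars) or with 2 or fewer (light bars). Gm4735, Rpl34-ps1 and Rpl3-ps1 reach 100% within 2 differences, while Rps4l stays at 0.783%.

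Eno1b, listed by the authors as protein-coding, is a second enolase copy, on chromosome 18 (start 48045335, end 48048378, plus strand). It was 99.5% identical to Eno1, with 8 coding differences, all at the third base of a codon. All 5 differences of Gm4735 from Eno1 were also present in Eno1b. Of its 50-base windows, 82.2% were identical to Eno1 and 97.8% lay within 2 differences.

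Rps4l had 2 separate ranges of levels. It stood at 78.4 FPKM in wild type 1, 88.5 in wild type 3 and 70.1 in wild type 5, on 1271, 1082 and 991 counts. In wild type 2 and 4 it was at 3.18 and 6.83 FPKM. In Ldha-null 1 to 5 it was at 5.91, 7.74, 10.1, 7.41 and 3.15 FPKM, on 49 to 144 counts. The lowest of the 3 high tumors was 6.91 times the highest of the other 7, no tumor lay between, and the low wild type tumors lay within the Ldha-null range. In RNA of whole tumors, fewer cells of a type and less RNA per cell cannot be told apart.

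Rps4x, the X-linked parent, had no such steps. Its level ran from 824 FPKM in Ldha-null 4 to 2484 in Ldha-null 3, and it was at 978, 912 and 1614 FPKM in wild type 1, 3 and 5. Rps4l made up 7.42%, 8.84% and 4.16% of the summed FPKM of copy and parent in those 3 tumors and 0.237% to 0.891% in the other 7. The only other row at least 90% identical to Rps4l over 80% of its length, Rps4l-ps, had 0 counts in all 10 tumors.

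**Figure D2:**
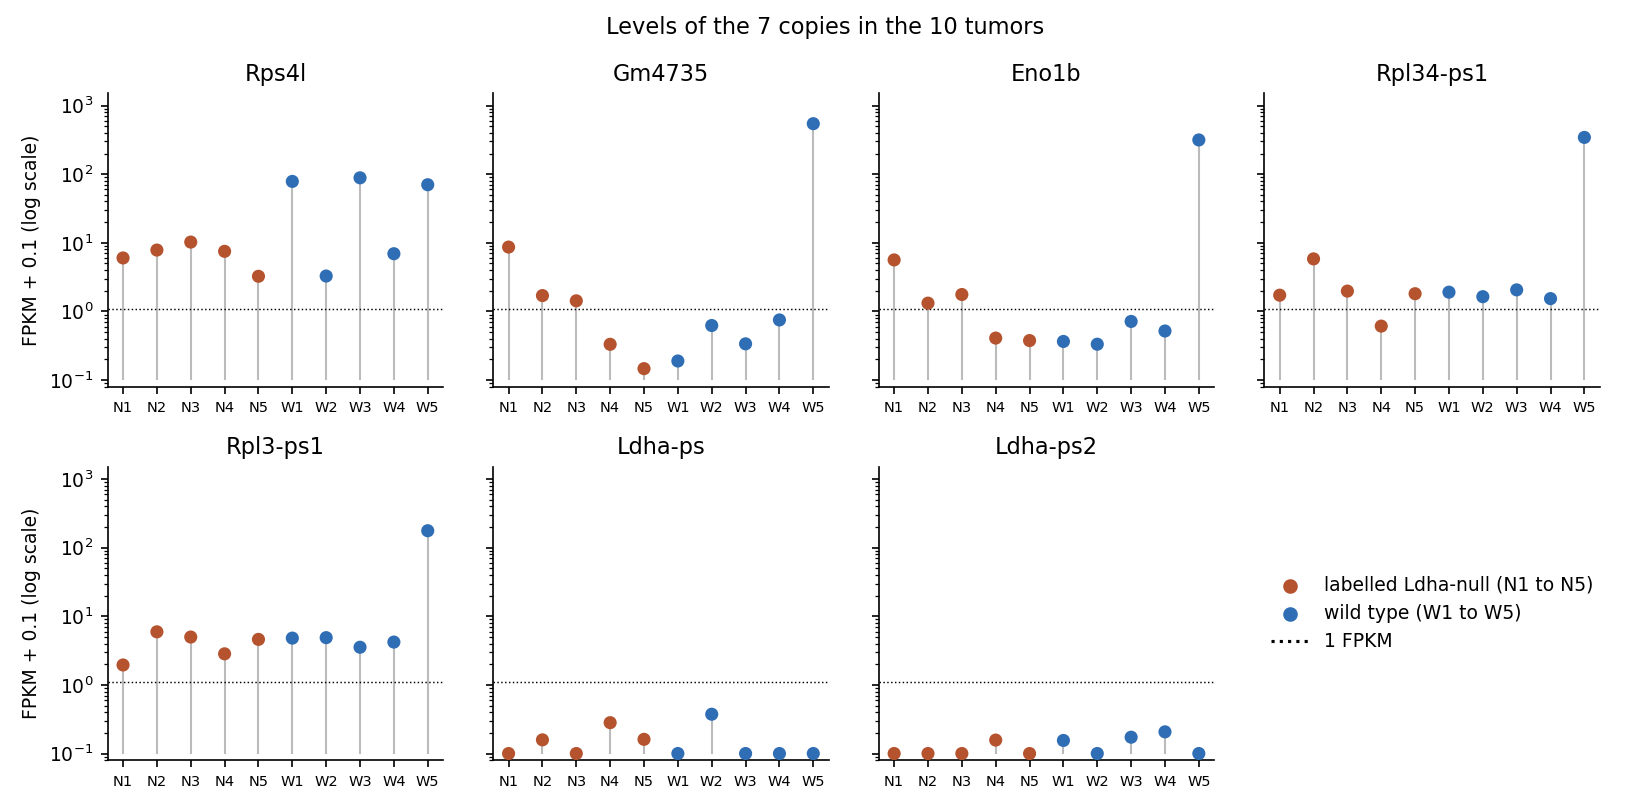
FPKM with 0.1 added (log scale) of each of the 7 copies in the 5 tumors labelled Ldha-null (N1 to N5, orange) and the 5 wild type tumors (W1 to W5, blue), 1 point per tumor, with a dotted line at 1 FPKM. Gm4735, Eno1b, Rpl34-ps1 and Rpl3-ps1 are high in W5 alone, Rps4l in W1, W3 and W5, and the pair of Ldha copies stay under 1 FPKM.

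Rpl34-ps1 reached 344 FPKM in wild type 5, on 1823 counts. It was at 5.73 FPKM in Ldha-null 2 and at 0.511 to 1.88 FPKM in the other Ldha-null tumors. In wild type 1 to 4 it was at 1.81, 1.54, 1.96 and 1.44 FPKM, on 8 to 11 counts a tumor. Wild type 5 thus stood 59.0-fold above the next tumor (0.1 FPKM added to both), and the other 9 tumors had few reads on this row.

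Rpl34 itself was lowest in that tumor. Its level was 490 FPKM in wild type 5 and 1013 to 1705 FPKM in the other 9, so wild type 5 lay outside their range. There Rpl34-ps1 made up 41.2% of the FPKM of copy and parent, or 30.2% of their counts, against 0.0504% to 0.366% of FPKM elsewhere. The sum of both was 833 FPKM, still under the lowest of the other tumors, 1013 in Ldha-null 4.

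A further 6 rows were at least 90% identical to Rpl34-ps1 over 80% of its length. None reached 1 FPKM in any tumor, and the highest in wild type 5 was Gm4705 at 0.942 FPKM on 5 counts. As counted by the authors, nearly all the reads of these 7 rows in wild type 5 lay on Rpl34-ps1.

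Rpl3-ps1 had the same shape on a higher floor. It was at 177 FPKM in wild type 5, on 3203 counts. Ldha-null 1 to 5 were at 1.85, 5.84, 4.89, 2.74 and 4.51 FPKM, and wild type 1 to 4 at 4.71, 4.78, 3.44 and 4.11 FPKM. All 10 tumors were above 1 FPKM, and the groups overlapped apart from wild type 5, 29.7-fold above the next tumor.

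Rpl3, unlike Rpl34, was within the range of the other tumors in wild type 5. It was at 677 FPKM there and at 320 to 1487 FPKM in the other 9, with 2 tumors lower. The copy made up 20.7% of copy and parent in wild type 5 and 0.328% to 0.612% in the other 9 tumors. Over those 9 tumors the log2 level of Rpl3-ps1 followed that of Rpl3 (Pearson's r = 0.83, a description over 9 tumors) and Rpl34-ps1 followed Rpl34 (r = 0.63). With wild type 5 included these values were 0.08 and -0.54. Of 15 other rows at least 90% identical to Rpl3-ps1, none reached 1 FPKM in wild type 5, and 1 did elsewhere, Gm5879, 99.0% identical, at 1.15 FPKM in wild type 3.

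Gm4735 had the highest level of all 7 copies, 545 FPKM on 10628 counts, in wild type 5. In wild type 1 to 4 it was at 0.0893, 0.523, 0.237 and 0.651 FPKM. In Ldha-null 1 to 5 it was at 8.56, 1.60, 1.33, 0.231 and 0.0465 FPKM, the last on 1 count. The gap of 62.9-fold between wild type 5 and Ldha-null 1 was followed by a smaller one between Ldha-null 1 and the other 8 tumors.

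Eno1b followed Gm4735 from tumor to tumor. It was at 316 FPKM on 8312 counts in wild type 5 and at 0.265, 0.233, 0.614 and 0.418 FPKM in wild type 1 to 4. In Ldha-null 1 to 5 it was at 5.53, 1.22, 1.66, 0.309 and 0.276 FPKM. The 3 tumors with the most Gm4735 outside wild type 5, Ldha-null 1, 2 and 3, were also the 3 with the most Eno1b. Between the copies r was 0.98 over 10 tumors and 0.93 without wild type 5. The copies were 99.77% identical to each other over 1302 bases, so many short reads match both. How such reads were assigned was not given, so the levels of the copies cannot be taken as separate measurements.

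Eno1, the parent of both, was high in many tumors. It was at 2569 FPKM in wild type 5, 2633 in wild type 4 and 2615 in Ldha-null 3. The lowest level was 356 FPKM in Ldha-null 1, and the other 6 tumors lay at 762 to 1984 FPKM. Gm4735 and Eno1b together were 25.1% of the FPKM of the 3 rows in wild type 5, 3.81% in Ldha-null 1 and 0.0224% to 0.142% in the other 8 tumors. The 3 rows summed to 3429 FPKM in wild type 5, above the 2634 FPKM of wild type 4, the next highest, so here the copy reads came beside a parent that was not low. The authors' FPKM of Eno1 implied a length of 934 bases where 2027 are listed, while the lengths of the copies matched their listing, so shares were also taken from counts. By counts Gm4735 was 22.8% of Gm4735 plus Eno1 in wild type 5, against 17.5% by FPKM. Eno1b was 18.8% of Eno1b plus Eno1 by counts, against 10.9% by FPKM. Each share was thus higher by counts, and neither can be set beside the 25.1%, which is of all 3 rows. The 25.1% and the sum of 3429 FPKM depend on the length used for Eno1 in the same way.

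**Figure D3:**
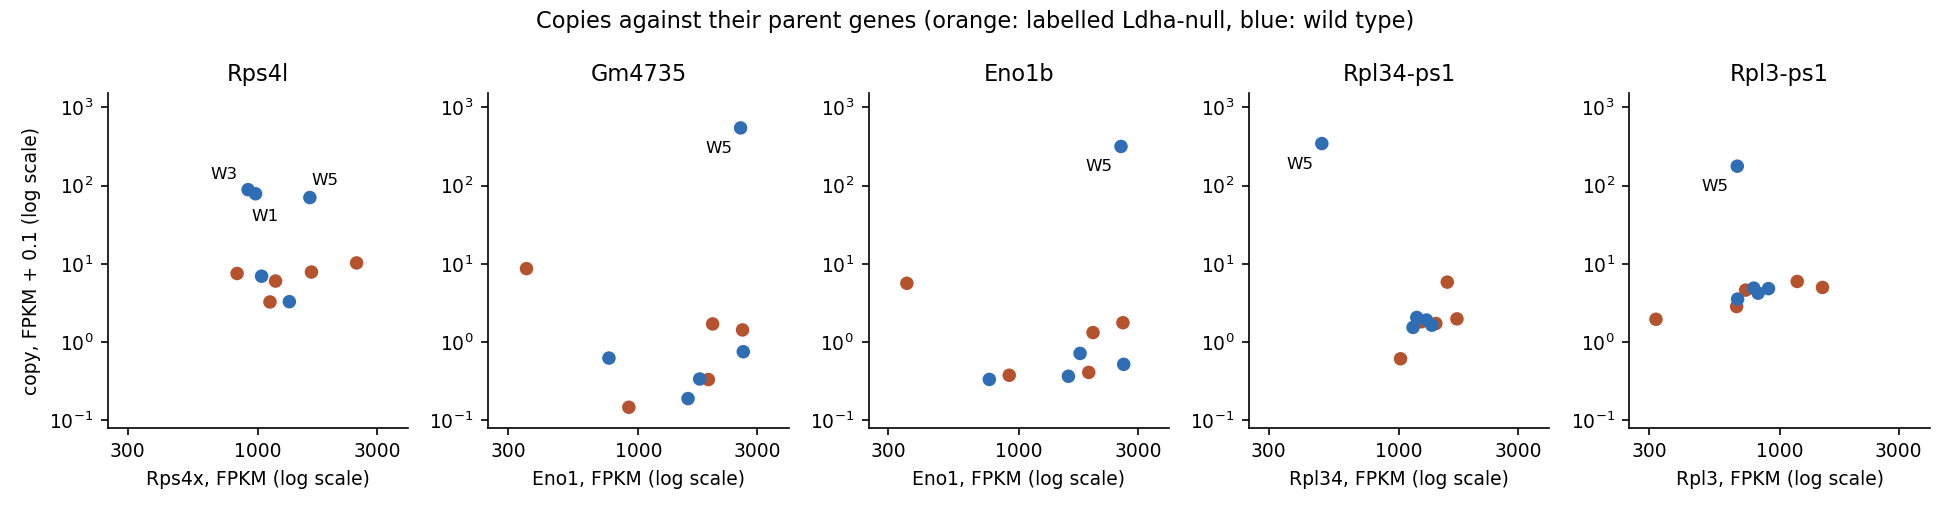
FPKM of each copy with 0.1 added against FPKM of its parent gene, both on log scales, 1 point per tumor (orange: labelled Ldha-null, blue: wild type). W5 lies above the other 9 tumors for 4 copies, at the lowest Rpl34 level of all tumors but at a high Eno1 level, and Rps4l is high in W1, W3 and W5 at different Rps4x levels.

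Ldha-ps, at chr2:60134055-60135049 inside Baz2b on the opposite strand, had 9 counts in all 10 tumors together. It had 4 counts in wild type 2 (0.274 FPKM), 3 in Ldha-null 4, and 1 each in Ldha-null 2 and 5. The other 6 tumors had 0 counts, which allow up to 0.170 to 0.232 FPKM (3 counts, counting error only). Ldha-ps2, at chr4:119334389-119335445 inside Ccdc30 on the same strand, had 5 counts, 2 of them in wild type 4 (0.107 FPKM) and 1 each in Ldha-null 4 and wild type 1 and 3. Wild type 5, with the highest Ldha level at 2824 FPKM, had 0 counts on both rows. Neither copy passed the filter on low counts, and no difference between tumors was detectable at this depth.

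How unusual such a spread is was read from all rows that reached 1 FPKM in a tumor. Of 16493 such rows, 3.25% had a highest tumor at least 10 times the second highest (0.1 FPKM added), and 31.9% had a highest tumor at least 10 times the lowest. Of the 5 copies that reached 1 FPKM, 4 met the first condition and all 5 the second, which is what they were selected for. The fold between highest and lowest tumor was 3717 for Gm4735, 949 for Eno1b, 563 for Rpl34-ps1, 90.5 for Rpl3-ps1 and 27.3 for Rps4l. The lowest Gm4735 level was 1 count, so its fold ran from 521 with 1 FPKM added to 9632 with 0.01 FPKM added. With 1 FPKM added the fold was 257 for Eno1b and 228 for Rpl34-ps1, and without Ldha-null 4 it was 224 for Rpl34-ps1. Without wild type 5 it was 59.1 for Gm4735, 16.9 for Eno1b, 9.54 for Rpl34-ps1 and 3.04 for Rpl3-ps1.

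For the parents the fold between highest and lowest tumor was 11.5 for Ldha, 7.39 for Eno1, 4.65 for Rpl3, 3.48 for Rpl34 and 3.01 for Rps4x. Single tumors set several of these. Without Ldha-null 1 the fold was 3.46 for Eno1 and 2.21 for Rpl3, without wild type 5 it was 1.68 for Rpl34, and without Ldha-null 3 it was 1.99 for Rps4x. On TMM-scaled CPM (counts per library size) it was 4.83 for Eno1, 4.68 for Rpl34 and 3.06 for Rpl3, so the order of the ribosomal pair depended on the scale.

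The same first condition was met by 21 of the 751 rows typed as pseudogenes that reached 1 FPKM, or 2.80%. Wild type 5 was the high tumor for 11 of them, Ldha-null 1 for 4, and each of the other tumors for 0 to 2. Several rested on few counts: in wild type 5 Gm17181 on 2, Gm14889 on 6 and Gm5874 on 10. In other tumors these were Gm12991 on 2, Gm14186 on 3, Gm12222 on 5 and Gm12721 on 7. Each of these had 0 FPKM in its second highest tumor, so its pass rests on the 0.1 FPKM added. Besides Gm4735, Rpl34-ps1 and Rpl3-ps1 the 11 rows of wild type 5 included BC002163 at 75.9 FPKM, Gm10182 at 21.3 and Gm7879 at 5.25 FPKM, named after their values were seen. These 3 aligned best to Ndufs5 (a respiratory complex I subunit, 99.4% identical), Hmgn2 (a nucleosome-binding protein, 100%) and Ppih (a cyclophilin, 99.0%). The Gm10182 transcript aligned had 273 bases, while its row spans 22320314 to 22321410 on chromosome 9. Its 100% thus covers only part of that row. Of the 10 rows of wild type 5 with a transcript in the annotation, 8 were at least 98% identical to a protein-coding transcript over 80% of their length, among them the 3 copies followed here. Of the 10 rows of the other tumors 2 were, Gm6166 among them, a near copy of Fabp5 with 1542 FPKM in Ldha-null 3. Over all 720 pseudogene rows that reached 1 FPKM and had a transcript, 27.5% were that close to a coding gene. Of these 198 near-identical rows, 44 were highest in wild type 3, 31 in wild type 5 and 28 in Ldha-null 5.

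The level of the parent in wild type 5 differed among these copies. Ndufs5 was at 46.7 FPKM, below the 87.9 to 271 FPKM of the other 9 tumors, and BC002163 took 49.1% of the counts of the pair. Hmgn2 was at 91.4 FPKM, within the 51.4 to 188 FPKM of the others, and Ppih at 37.3, within 20.5 to 60.8 FPKM. A parent below all other tumors was thus seen for Rpl34 and Ndufs5 but not for Rpl3, Eno1, Hmgn2 or Ppih.

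**Figure D4:**
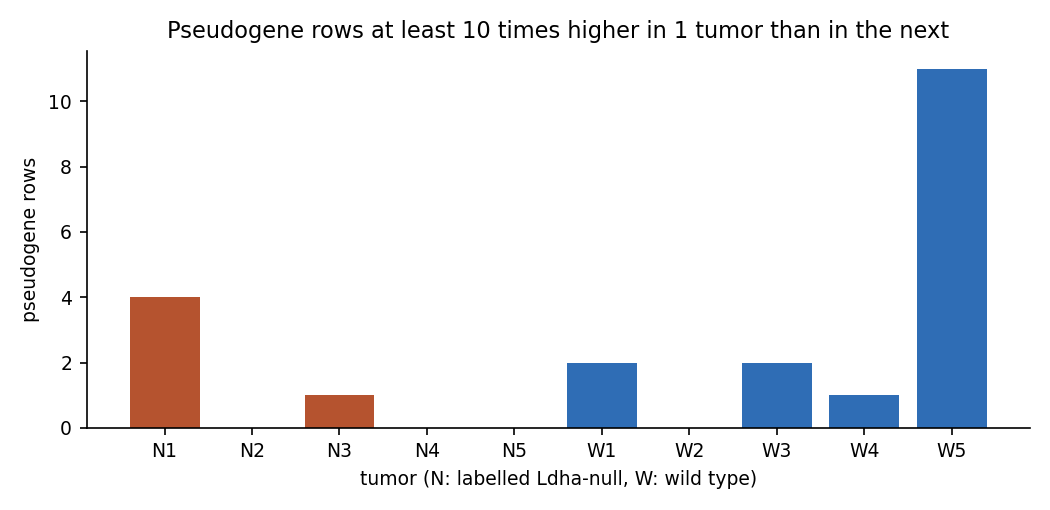
Number of rows typed as pseudogenes by the authors, of at least 1 FPKM in a tumor, whose highest tumor was at least 10 times the second highest, by that highest tumor (N: labelled Ldha-null, W: wild type). W5 has 11 of the 21 rows and N1 has 4. Some of the 21 rows rest on few counts.

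Rpl34 was 1 of several ribosomal protein genes that were low in wild type 5. Of 83 of these genes averaging 1 FPKM or more, 23 were lowest in that tumor, and the median log2 ratio of that tumor to the median of the other 9 was -0.16. How many of all tested genes were lowest in that tumor was not counted, so no trait of ribosomal protein genes is read from the 23. Rpl34 was the fifth from the bottom at -1.39, after Rps18 at -2.05, Rpl35a, Rps2 at -1.77 and Rpl29 at -1.60. Rpl3 stood at -0.22 and Rps4x at 0.53.

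**Figure D5:**
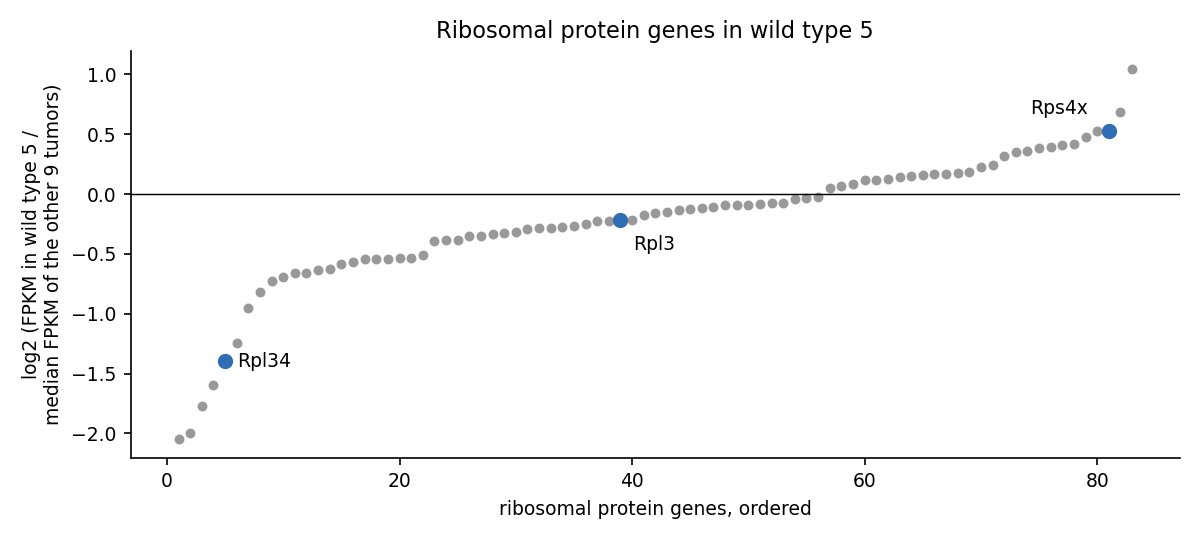
Log2 ratio of FPKM in wild type 5 to the median FPKM of the other 9 tumors for 83 ribosomal protein genes, ordered from lowest to highest, 1 point per gene. The parents Rpl34, Rpl3 and Rps4x (blue) stand at -1.39, -0.22 and 0.53.

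The copies took up a visible part of all pseudogene counts in wild type 5. The rows typed as pseudogenes held 0.349% of the counts of that tumor and 0.180% to 0.449% of the counts of the others. The 5 copies typed as pseudogenes made up 29.97% of these in wild type 5 and 0.132% to 0.626% elsewhere. Without them the pseudogene share of wild type 5 was 0.244%, within the range of the other tumors. Among 111 rows with names ending in ps that reached 1 FPKM, the 5 with the largest fold between tumors were Rpl34-ps1, Sprr2j-ps (175-fold), Hmgb1-ps5 (119-fold), Rpl3-ps1 and Rpl30-ps3 (49.7-fold), of which Sprr2j-ps was also highest in wild type 5.

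The genes around the copies were set beside them. Wild type 5 was the highest tumor for 12.5% of the 15176 genes tested. Rps4l lies within the interval of Tmtc1, on the opposite strand, whose level was 9.43 FPKM in Ldha-null 1 and 0.667 FPKM in wild type 5. The 5 tested genes within 500 kb of Rps4l were highest in Ldha-null 1, Ldha-null 5 or wild type 2, none of them a tumor high in Rps4l. None of the 11 around Rpl34-ps1 or the 7 around Rpl3-ps1 was highest in wild type 5. Of the 6 around Gm4735, 1 was, Nup35 (a nuclear pore protein), at 19.99 FPKM against a lowest level of 8.93. The neighbours of Eno1b were not analysed here. The r of neighbours ran from -0.36 to 0.82 (Nup35) for Gm4735, from -0.86 to 0.52 (Ddx3x) for Rpl3-ps1, from -0.69 to 0.35 (Rpia) for Rpl34-ps1 and from -0.30 to -0.03 for Rps4l.

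Since 4 copies were selected for a high level in 1 tumor, the genes most like them in log2 level over the 10 tumors largely share that tumor, and their r values are a description. None of the 15 pairs of copy and gene below stayed among the 3 most alike by Spearman's rho, nor without Ldha-null 1 and 3 and wild type 5. For Gm4735 and for Eno1b they were Krt4 (a keratin of lining epithelia), Mal (a membrane proteolipid) and the other, near-identical copy. Their r was 0.96 to 0.98. For Rpl34-ps1 they were Rpl3-ps1, Fads2 (a fatty acid desaturase) and Eno1b, with r of 0.98, 0.94 and 0.91. For Rpl3-ps1 they were Rpl34-ps1, Fads2 and Fam120a, with r of 0.98, 0.93 and 0.92. Without wild type 5, r was 0.65 between Rpl34-ps1 and Rpl3-ps1, 0.58 between Eno1b and Rpl34-ps1 and 0.09 between Eno1b and Rpl3-ps1. All of these genes were highest in wild type 5, where Krt4 was at 13.4 FPKM against 1.54 in the next tumor and Mal at 43.1 against 1.47. Rps4l was most like Nop14 and Lyar (nucleolar proteins) and Aff3, with r of 0.88, 0.86 and 0.86, and its r with the other 4 copies was 0.34 to 0.48.

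Tissue content, read from marker genes, differed among the tumors. The summed FPKM of 6 keratinocyte markers was 34910 in wild type 5, the highest of the 10 tumors, against 34630 in Ldha-null 3 as the next and 197 as the lowest. Most of it was Krt14, at 28691 FPKM in wild type 5. Krt5 and Cdh1 were also highest there, while Krt1, Krt10 and Trp63 were highest in Ldha-null 3, with Krt1 at 1518 against 165 FPKM and Krt10 at 1903 against 126 FPKM in wild type 5. Its sum of 5 mesenchymal markers, 4161 FPKM, was the lowest of the wild type tumors, with 300 to 11097 over the other 9. Muscle markers summed to 13.5 FPKM in wild type 5 and to 35159 FPKM in Ldha-null 1, the second tumor in Gm4735 and Eno1b, where Eno3 (muscle enolase) was at 5678 FPKM against 8.11 to 127 elsewhere. Leukocyte markers summed to 349.8 FPKM in wild type 5 (75.4 to 4596 elsewhere) and endothelial markers to 19.8 FPKM (16.2 to 44.0). Ldha-null 3, next to wild type 5 in keratinocyte markers, had 1.33 FPKM of Gm4735 and 1.88 FPKM of Rpl34-ps1. The part of tissue content in the levels of the copies was not tested.

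Genes that differ between inbred strains, or between the sexes, varied among the tumors. Of 12 strain-variable genes listed, 11 were rows of the tables, and Entpd4 and Pla2g2a were at 0 in all 10 tumors. Wdfy1 was at 16.2, 45.6 and 6.08 FPKM in wild type 1, 3 and 5, the 3 tumors high in Rps4l, and at 8.39 to 39.6 FPKM in the other 7. Ifi202b was at 0.0971 and 1.37 FPKM in wild type 1 and 3, and wild type 5 was second only to Ldha-null 3 at 17.7 FPKM. Of the 9 expressed genes, wild type 5 was lowest in Wdfy1 and Mx1 (0.244 FPKM) and highest in Alad (35.4 FPKM). The Y-linked Ddx3y was at 6.42 FPKM in wild type 1 but at 0.0271 and 0.0235 FPKM in wild type 3 and 5, so the 3 tumors did not share a sex by this gene. Strain and sex were not given for single tumors, and their part in the levels of the copies was not tested.

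Between the genotypes no gene was called, so no parent was either. Of the 7 copies 5 passed the filter on low counts, all but Ldha-ps and Ldha-ps2, and edgeR's quasi-likelihood test called 0 of 15176 genes (0%) at an adjusted p under 0.05, with 601 at an unadjusted p under 0.05 and 1 called by DESeq2. The groups overlapped in FPKM for all 7 copies, against 0.165% of tested genes whose groups did not. Rps4l averaged 6.87 ± 1.15 FPKM (SEM, n = 5) over Ldha-null and 49.4 ± 18.4 FPKM over wild type tumors, a log2 difference of -2.63 ± 0.84 (SE) given as a description. For Gm4735 the means were 2.35 ± 1.58 and 109 ± 109 FPKM, where the wild type mean without wild type 5 was 0.375 FPKM.

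The parents were not chosen for their levels and were tested. Rpl34 averaged 1382 ± 122 FPKM (SEM, n = 5) over Ldha-null and 1088 ± 155 FPKM over wild type tumors, a log2 difference of 0.61 ± 0.36 (edgeR adjusted p = 0.999, two-sided exact permutation p = 0.175). The log2 differences were 0.51 ± 0.41 for Rps4x (exact permutation p = 0.357), 0.31 ± 0.36 for Rpl3 (0.611), -0.19 ± 0.51 for Eno1 (0.675) and 0.33 ± 0.90 for Ldha (0.857). No difference passed the threshold. Among families, 0 of 83 tested ribosomal protein genes, 0 of 4 enolases and 0 of 3 lactate dehydrogenases were called, with median log2 differences of 0.28, -0.30 and 0.87 beside 0.02 over all tested genes.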

How the data were processed

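RNA-seq tables of 10 mouse squamous cell carcinomas, 5 per genotype label, were used. Per the labels and the methods, the authors enriched mRNA with oligo(dT), sequenced on a HiSeq2500, called bases with CASAVA 1.8, filtered reads, mapped them with TopHat2 to mm10 allowing 2 mismatches and tallied fragments on genes by HTSeq (union mode). The deposited counts are raw fragments per gene, and the deposited FPKM values were computed by the authors from these. Versions of TopHat2 and HTSeq, the annotation release, the read length, strandedness and the handling of reads that map to several places were not given in the sources used here, and all of these bear on near-identical copies.

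Members were matched by gene name in all 10 tables. The members and all lists were chosen with earlier results of these data known. Genotypes were compared with edgeR 4.0.16 (filterByExpr, minimum count 10 and total 15, TMM, quasi-likelihood test, Benjamini-Hochberg over 15176 genes, threshold 0.05). DESeq2 1.42.0 and limma 3.58.1 were alternatives. The code was checked on simulated data with less spread than these tumors, so that check does not give the power for them. SEs of log2 differences are the log2 difference over the square root of F. The 5 parents were also compared by two-sided exact permutation over 252 assignments of log2 CPM (TMM, prior count 2). Folds between tumors used FPKM with 0.1 added, and detection meant at least 1 FPKM. The series' design gives 5 mice per genotype, but the labels name no animal, so p-values measure the spread between these tumors. Floors and counts cover counting error only.

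Sequences came from the GENCODE M21 transcripts. The planned choice of a parent for Gm4735 by protein identity was replaced by the closest transcript (BLAST+ 2.17.0), since no protein table was used here. Local alignments used Biopython 1.88. Genes named were the copies, parents, overlapping rows, further copies of the same parents, the 3 genes most like each copy (Pearson's r of log2 CPM), up to 3 tested neighbours within 500 kb, the 5 rows ending in ps with the largest fold, families, and strain, sex and cell type lists. Other single-tumor copies were named after their values were seen.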

Additional observations from a re-analysis of the deposited data

Results flagged for a closer look

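Within each group of 5 tumors, the gap from the highest or lowest tumor to its neighbour, divided by the range of the group, was set against 0.71, the value of Dixon's test for 5 samples, which chance passes in about 1 in 20 groups. Of 24 groups examined for the 7 copies and 5 parents, 9 gaps passed in groups whose highest tumor reached 1 FPKM. The groups of Ldha-ps and Ldha-ps2, all under 1 FPKM, could not be flagged, so the 9 are not set against the chance rate. Since the copies were selected with their levels in these tumors known, all of their gaps are a description and no test. In wild type 5 the gaps were 0.999 for Gm4735, 0.999 for Eno1b, 0.998 for Rpl34-ps1 and 0.992 for Rpl3-ps1.

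Among the Ldha-null tumors, also as a description, Ldha-null 1 stood apart in Gm4735 (gap 0.817 of the range, 8.56 FPKM against 1.60 in the next tumor) and in Eno1b (0.736, 5.53 against 1.66 FPKM). Ldha-null 2 stood apart in Rpl34-ps1 (0.738, 5.73 against 1.88 FPKM).

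Among the parents, wild type 5 stood below the other wild type tumors in Rpl34 (0.75, 490 against 1137 FPKM) and above them in Ldha (0.9, 2824 against 589 FPKM). Their causes were not tested.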

How the results depend on the processing

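The count of genes called between genotypes was 0 in each edgeR and limma-voom alternative and 1 with DESeq2, and it was 0 without any 1 tumor. None of the 10 copies and parents tested was called under any alternative. DESeq2 gave no p for Gm4735, Eno1b, Rpl34-ps1 and Rpl3-ps1. Tumor numbers did not pair the samples (correlations of deviations from -0.51 to 0.55). The fit with a replicate block called 0 genes and turned the log2 difference of Eno1b to 1.06 and of Gm4735 to 0.93. Without Ldha-null 1 and 3 and wild type 5 it was 0.60 for Eno1b, 0.68 for Gm4735, 0.60 for Rpl34-ps1, -0.032 for Rpl34 and -0.24 for Ldha, and with limma-voom quality weights -0.18 for Ldha. Over fits that each left out 1 tumor it ran from -7.16 to 3.27 for Gm4735, -6.25 to 2.81 for Eno1b, -5.46 to 0.61 for Rpl34-ps1 and -3.61 to 0.048 for Rpl3-ps1, each highest without wild type 5. It ran from -0.55 to 1.53 for Ldha, -0.55 to 0.016 for Eno1, -0.036 to 0.45 for Rpl3 and -2.93 to -2.33 for Rps4l.

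The copies with a fold of at least 10 between tumors numbered 5, and 2 without the 3 tumors that stand apart, with 3 to 5 on leaving out 1 tumor (3 without wild type 5). Those detected in all 10 tumors numbered 2 at 1 FPKM and 4 at 0.1 FPKM. Of the 15 pairs of copy and gene named as most alike, 14 stayed among the 3 most alike with a prior count of 0.5. With Spearman's rho 0 stayed, and without the 3 tumors 0. The cause of these changes was not tested, beyond the removal of the high tumors themselves. Depth limits Ldha-ps and Ldha-ps2, at 9 and 5 counts in all.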
